A study of Homo sapiens with 8 samples.

Results

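The genes that carry glucose to pyruvate, export lactate and control the entry of pyruvate into the mitochondrion were followed in A673 cells, an established human Ewing Sarcoma cell line, treated with JIB-04, a small-molecule inhibitor of Jumonji-domain histone demethylases. The group holds 34 genes, named by symbol as steps of the pathway, with earlier results of these data known, out of 65962 genes in the expression table, with the entry of highest mean kept where a symbol had several identifiers. All 34 lay above the level needed for testing (a mean of 1 FPKM over the 8 libraries), and were tested among 17460 genes. The 8 RNA-seq libraries were 4 of cells given vehicle (DMSO) and 4 of cells given 2 μM JIB-04, all collected at 36 hours. No other genotype, dose or time was used here, so the values describe 1 cell line under 1 drug condition. The culture medium of both groups was DMEM with added sodium pyruvate. Neither the labels nor the methods say that the 4 replicates of a group were separate cultures, and the p-values therefore cover no more than the spread among these 8 samples.

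Glycolysis breaks glucose down to pyruvate in the cytosol, and most of its steps are served by several isoenzymes, encoded by separate genes that differ in tissue pattern and regulation. Pyruvate is either reduced to lactate by lactate dehydrogenase and exported by monocarboxylate transporters, or oxidized to acetyl-CoA by the mitochondrial pyruvate dehydrogenase complex, which the pyruvate dehydrogenase kinases (PDKs) switch off by phosphorylation. Many tumor cells form lactate even with oxygen present, and several of these genes are textbook targets of the hypoxia-inducible factors and of MYC.

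Levels are given in FPKM, fragments per kilobase of transcript, scaled to the mapped reads of the library, so that genes can be compared per length, and a level is relative to the other RNA of its library. Differences between groups are given as log2 fold changes of JIB-04 over vehicle on the log2(FPKM + 0.5) scale, which understates changes of genes at low levels, and a gene was taken as changed at an adjusted p under 0.05 by limma, adjusted over all 17460 genes. Total FPKM ran from 1346289 to 1370436 in the vehicle libraries and from 1175407 to 1237186 in the JIB-04 libraries, and transcripts of the mitochondrial genome made up 9.99% to 10.6% of it in vehicle and 4.59% to 5.54% with JIB-04. All 8 Ewing Sarcoma markers examined were above 1 FPKM, with a summed level of 3176 to 3435 FPKM in vehicle and 1959 to 2408 FPKM with JIB-04. Of markers of other cell types, MYOD1, MYOG and CD3E had means of 0 or near 0 in both groups and PTPRC stayed near 0. The summed levels moved in some lists, from 0.328 to 0.507 FPKM up to 2.17 to 3.68 FPKM for 4 leukocyte markers (1 above 1 FPKM), from 23.8 to 36.7 up to 64.2 to 71.7 for 3 neuronal markers (2 above 1 FPKM), and from 95.9 to 102 down to 52.1 to 61.2 for 4 fibroblast markers (4 above 1 FPKM). A marker was counted as above 1 FPKM where its mean in at least 1 group was. Members of a list did not all move with its sum. In the Ewing Sarcoma list LIPI rose from 158 to 202 FPKM and NR0B1 did not pass the test (111 and 124 FPKM). CD99, NKX2-2, PRKCB, STEAP1, CCND1 and KCNAB3 fell. Among the fibroblast markers COL1A2 went from 79.3 to 7.82 FPKM while COL1A1 went from 13.8 to 47.1 and PDGFRA from 0.291 to 1.33 FPKM, and among the epithelial markers KRT8 went from 23.2 to 71.5 while KRT18 went from 302 to 243 FPKM. The sums were 316 to 338 against 304 to 321 FPKM for 4 epithelial markers, 0.554 to 1.16 against 1.31 to 2.27 FPKM for 3 endothelial markers, and under 1 FPKM in every library for 3 muscle markers. The part of these marker shifts in the results that follow was not tested.

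With JIB-04 most genes of glycolysis, glucose entry and lactate export rose, while PDHA1, PDHB and DLAT, subunits of the pyruvate dehydrogenase complex, fell. Of the 34 genes, 19 rose, 9 fell and 6 did not pass the test, so that 82.4% passed against 72.2% of all genes tested. Risers made up 55.9% of the group against 34.2% of all genes, and fallers 26.5% against 38.0%. At least 2-fold (a log2 fold change of 1 or more in size), 10 genes (29.4%) rose against 13.1% of all genes, and 1 gene (2.94%), PDHB, fell against 11.8%. SLC16A3, counted among these risers, reached the level for testing only through the JIB-04 libraries, so its entry favored a rise. The median log2 fold change was 0.36 in the group and -0.066 over all genes. After rescaling to TPM the median of all genes lay 0.15 higher, a shift of the scale itself that small differences have to be set against. With levels rescaled to nuclear genes only, 21 of the 34 genes rose and 8 fell, while of all 17445 genes tested 6485 rose and 6003 fell. In 28 of the 34 genes (82.4%) the libraries of the groups did not overlap, against 67.3% of all genes. Together the 34 genes held 24388 ± 648 FPKM with vehicle and 25288 ± 655 FPKM with JIB-04 (mean ± SD, n = 4), which was 1.80% and 2.09% of all FPKM. In bulk RNA, a change in the number of cells that express a gene and a change in its RNA per cell cannot be told apart.

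**Figure D1:**
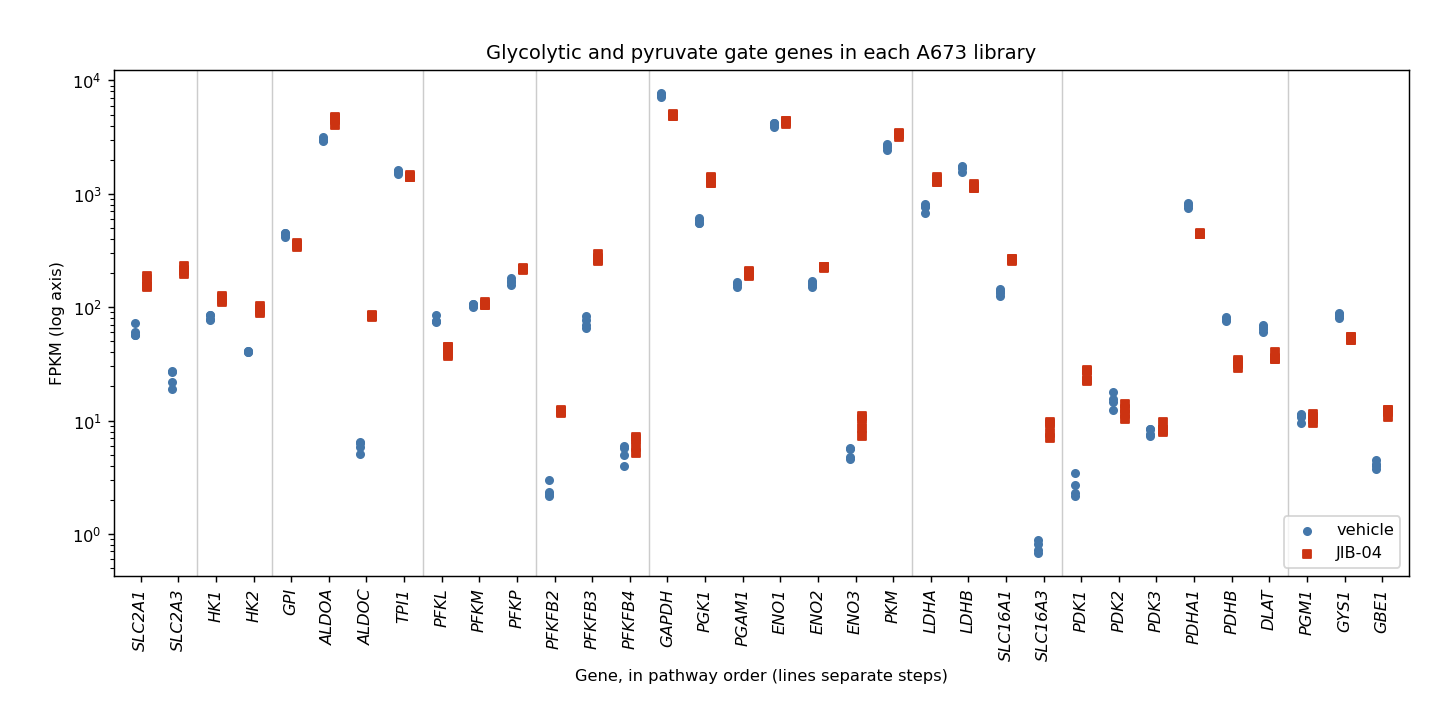
FPKM of the 34 genes in each of 4 vehicle libraries (blue circles) and 4 JIB-04 libraries (red squares) on a log axis, in pathway order, with vertical lines between steps. GAPDH, ENO1, ALDOA and PKM were the most abundant, and the genes that differed most with JIB-04, such as ALDOC and SLC16A3, started from low levels in vehicle.

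**Figure D2:**
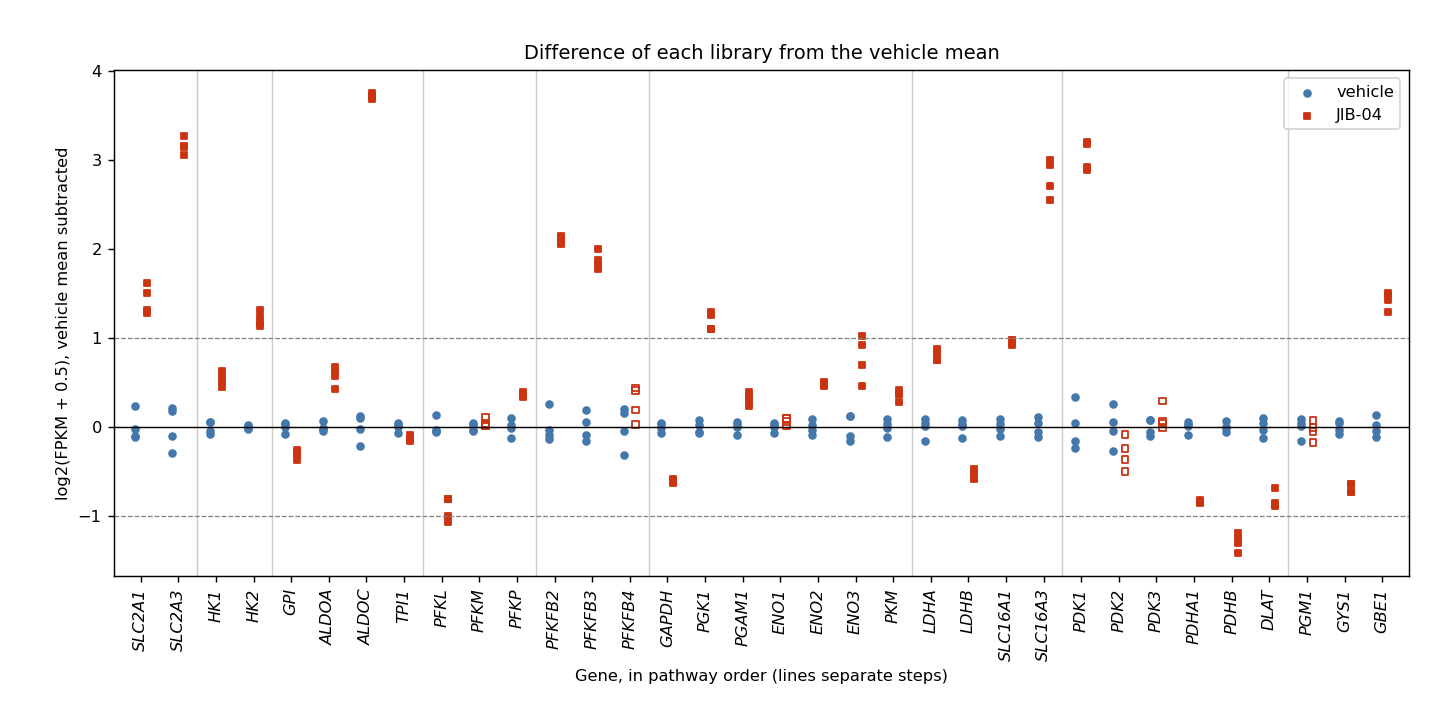
Difference of each library from the vehicle mean of the same gene, on the log2(FPKM + 0.5) scale, with dashed lines at 2-fold and open squares for the 6 genes that did not pass the test. ALDOC was highest, at 3.71 on average, and PDHB lowest, at -1.29.

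The promoter sequences of the gene with the largest rise, ALDOC, and of the gene with the largest fall, PDHB, are shown so that the letters of the textbook glycolytic promoter motifs can be seen in genes that moved in opposite directions. They are the 250 bases upstream of the RefSeq start (GRCh38.p14), and both genes are read from the - strand. Capitals mark ACGTG, the core of the hypoxia response element, on either strand (CACGT is its reverse complement), and CACGTG, the E-box bound by MYC and by MLX proteins, which contains ACGTG on both strands and was counted as 1 site.
ALDOC, chr17:28576896-28577145, - strand: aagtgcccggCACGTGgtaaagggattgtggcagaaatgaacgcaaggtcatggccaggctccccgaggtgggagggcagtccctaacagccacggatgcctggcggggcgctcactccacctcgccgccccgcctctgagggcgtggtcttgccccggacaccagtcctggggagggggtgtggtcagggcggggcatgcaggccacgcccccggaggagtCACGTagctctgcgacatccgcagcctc
PDHB, chr3:58433833-58434082, - strand: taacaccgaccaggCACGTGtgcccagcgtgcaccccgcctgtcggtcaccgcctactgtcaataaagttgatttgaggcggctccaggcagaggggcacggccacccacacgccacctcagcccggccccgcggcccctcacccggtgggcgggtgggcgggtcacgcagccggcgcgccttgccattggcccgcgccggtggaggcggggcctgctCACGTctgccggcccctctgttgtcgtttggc
Each of the 2 promoters held 2 sites, at positions -240 and -28 from the start in ALDOC and at -236 and -32 in PDHB, and the upstream site of each was a full CACGTG. The letters alone thus did not separate the largest rise from the largest fall.

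Over all 31 genes with a RefSeq promoter entry (SLC2A3, SLC16A1 and PFKFB2 had none), 24 of 62 windows of 300 bases (250 upstream and 50 downstream of a start) held ACGTG, or 38.7%, against 21.4% of 35116 windows of all genes. CACGTG stood in 8 of the 62 windows, or 12.9%, against 7.26%. At least 1 window held ACGTG in 7 of 8 genes that rose at least 2-fold, in 4 of 8 that rose less, in 4 of 6 that did not pass the test and in 5 of 9 that fell, against 24.9% of 27305 genes. Counted by window, the share was 53.3% (8 of 15) in genes that rose at least 2-fold, 28.6% (6 of 21) in those that rose less, 31.2% (5 of 16) in those that did not pass and 50% (5 of 10) in those that fell. The strongest risers and the genes that fell were thus near each other by window, but further apart by gene (7 of 8 against 5 of 9). Whether the motif goes with the direction of change was not tested. Genes have unequal numbers of windows, and the group has more per gene (62 in 31 genes) than all genes have (35116 in 27305 genes). This raises its count by gene. These counts are a description of letters, not of binding. The stretches around the sites of the other genes that rose at least 2-fold, chosen after their values were seen, are shown to let the flanking bases be compared. In each stretch only the site at its center is in capitals, so each PDK1 stretch also holds the other PDK1 site in lower case.
HK2, chr2:74833886-74833914, + strand: agccacggaccaCACGTcccatctcaggc
HK2, chr2:74834067-74834095, + strand: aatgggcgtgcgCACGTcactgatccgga
HK2, chr2:74834964-74834993, + strand: gattgctgcgccCACGTGggagggagcccc
HK2, chr2:74835009-74835038, + strand: ttccggcgagagCACGTGgagagaatcgtg
PFKFB3, chr10:6202812-6202841, + strand: caccctcctcccCACGTGgaagggggctgg
PGK1, chrX:78104034-78104062, + strand: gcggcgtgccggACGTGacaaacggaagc
PGK1, chrX:78104053-78104081, + strand: aaacggaagccgCACGTctcactagtacc
PGK1, chrX:78104264-78104292, + strand: gcctccggagcgCACGTcggcagtcggct
SLC16A3, chr17:82228962-82228990, + strand: cgccaggcggtgACGTGcgcgggggacgt
SLC16A3, chr17:82228975-82229003, + strand: cgtgcgcgggggACGTGccgcgccagcga
PDK1, chr2:172556061-172556089, + strand: cctgctgcccgcCACGTccctcacgtacc
PDK1, chr2:172556070-172556098, + strand: cgccacgtccctCACGTaccactcggcag
GBE1, chr3:81761741-81761769, - strand: tacccgctccggACGTGcgtcccggcatc
Among these 6 genes the full CACGTG appeared in HK2 (2 sites in 1 window) and PFKFB3, while PGK1, SLC16A3, PDK1 and GBE1 held ACGTG alone. PGK1 held 3 sites in 1 window and GBE1 a single site. Genes that all rose thus differed in the base next to ACGTG. SLC2A1, the remaining riser with a promoter entry, held neither motif in its window.

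Both glucose transporters of the group rose. SLC2A1 (ENSG00000117394, chr1:42925375-42959176, - strand) encodes the widely expressed transporter GLUT1. Its level was 72.4, 60.4, 57.0 and 57.1 FPKM in the vehicle libraries and 175, 189, 149.7 and 154 FPKM in the JIB-04 libraries. The groups did not overlap (log2 fold change 1.43 with an SE of 0.098, limma adjusted p = 1.1e-06). SLC2A3 (ENSG00000059804, chr12:7919230-7936275, - strand), which encodes the high-affinity transporter GLUT3, stood at 27.2, 26.7, 21.8 and 19.0 FPKM in vehicle and at 210.0, 229.7, 198 and 212 FPKM with JIB-04. The 2 groups were far apart, 8.97-fold in the ratio of means (log2 fold change 3.15 with an SE of 0.11, limma adjusted p = 2.03e-08). SLC2A3 passed from the lesser to the greater transcript of the pair, and the summed level of both was 85.4 ± 10.6 FPKM with vehicle and 379 ± 30.4 FPKM with JIB-04. SLC2A14, a near-identical paralog of SLC2A3 whose reads may be shared with it, went from 0.571 ± 0.218 to 6.0 ± 0.481 FPKM, and the 3 annotated pseudogene copies of SLC2A3 had 66.3% of the FPKM of SLC2A3 in vehicle and 16.7% with JIB-04, so the SLC2A3 level depends on how such reads were assigned.

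Of the hexokinases, which trap glucose in the cell by phosphorylation, HK2 rose more than HK1 on the log2 scale. HK2 (ENSG00000159399, chr2:74833981-74893359, + strand), the inducible isoenzyme, was at 41.2, 40.9, 40.4 and 40.0 FPKM with vehicle and 96.4, 102, 89.5 and 91.8 FPKM with JIB-04. The vehicle libraries lay close together, and the groups did not overlap (log2 fold change 1.21 with an SE of 0.050, limma adjusted p = 4.65e-08). HK1, the constitutive isoenzyme, rose from 81.5 ± 4.10 to 118 ± 6.14 FPKM (log2 fold change 0.54 with an SE of 0.054, limma adjusted p = 1.46e-05), also without overlap. HK1 remained the more abundant, and HK2 moved from 33.3% ± 1.29 to 44.5% ± 2.59 of their sum (exact permutation p = 0.0286).

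Of the genes between glucose phosphate and the triose phosphates, ALDOC and ALDOA rose and GPI and TPI1 were lower. ALDOC (ENSG00000109107, chr17:28573115-28577264, - strand), the brain-type aldolase, had 6.48, 6.36, 5.83 and 5.05 FPKM with vehicle and 85.4, 83.4, 81.6 and 82.9 FPKM with JIB-04. This was the largest rise of the 34 genes, 14-fold in the ratio of means, and the groups were far apart (log2 fold change 3.71 with an SE of 0.077, limma adjusted p = 1.44e-09). ALDOA, the main aldolase, rose from 3003 ± 100.5 to 4479 ± 328 FPKM (log2 fold change 0.57 with an SE of 0.054, limma adjusted p = 8.72e-06), and so ALDOC still made up only 1.83% ± 0.113 of aldolase FPKM after its rise. GPI, which isomerizes glucose phosphate to fructose phosphate, fell from 437 ± 17.4 to 353 ± 11.5 FPKM (log2 fold change -0.31 with an SE of 0.041, limma adjusted p = 0.000103). TPI1, which interconverts the triose phosphates, passed the test at a small size, 1558 ± 53.3 against 1424 ± 28.7 FPKM (log2 fold change -0.13 with an SE of 0.034, limma adjusted p = 0.00658). Its direction turned to 0.035 (limma adjusted p = 0.3445) when FPKM were rescaled to TPM. Under quantile scaling TPI1 passed as higher, at 0.087 (limma adjusted p = 0.0164), and with nuclear genes only it was -0.047 (limma adjusted p = 0.189). Its 4 pseudogene copies carried 94.0% of its own FPKM in vehicle and 97.8% with JIB-04, so its level is uncertain.

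The 3 phosphofructokinase subunits, which together form the committed step, moved apart, while their sum was 350.5 ± 7.59 FPKM with vehicle and 365 ± 5.09 FPKM with JIB-04. PFKL (ENSG00000141959, chr21:44300051-44327376, + strand), the liver-type subunit, stood at 85.6, 74.5, 75.2 and 75.9 FPKM with vehicle and 44.2, 44.3, 36.9 and 38.6 FPKM with JIB-04. It fell by close to 1 on the log2 scale, with every JIB-04 library below every vehicle library (log2 fold change -0.92 with an SE of 0.076, limma adjusted p = 3.91e-06). PFKP (ENSG00000067057, chr10:3066333-3137712, + strand), the platelet-type subunit, had 155, 181, 171 and 168 FPKM with vehicle and 213, 222, 217 and 216 FPKM with JIB-04. It rose, and the groups did not overlap (log2 fold change 0.36 with an SE of 0.049, limma adjusted p = 0.000113). PFKM (ENSG00000152556, chr12:48105139-48146404, + strand), the muscle-type subunit, had 107, 106, 101 and 101 FPKM with vehicle and 107, 105, 105 and 112 FPKM with JIB-04. These values overlapped and the difference did not pass the test (log2 fold change 0.044 with an SE of 0.042, limma adjusted p = 0.369, unadjusted 95% interval -0.051 to 0.14), although PFKM passed as higher after rescaling to TPM (0.21) or to nuclear genes only (0.13).

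The PFKFB enzymes make and break fructose 2,6-bisphosphate, the strongest activator of phosphofructokinase, and their summed level was 81.4 ± 7.79 FPKM with vehicle and 288 ± 18.2 FPKM with JIB-04. PFKFB3 (ENSG00000170525, chr10:6144934-6254644, + strand), the isoenzyme with the highest kinase activity, made up most of it, with 83.9, 69.0, 76.6 and 65.9 FPKM with vehicle and 253, 295, 261 and 270.3 FPKM with JIB-04. All JIB-04 libraries lay above all vehicle libraries (log2 fold change 1.87 with an SE of 0.081, limma adjusted p = 6.41e-08). PFKFB2 (ENSG00000123836, chr1:207034366-207081024, + strand), the heart-type isoenzyme, rose from a low level, with 2.17, 2.35, 2.25 and 2.99 FPKM with vehicle and 11.7, 12.4, 11.8 and 12.2 FPKM with JIB-04. These groups were also apart (log2 fold change 2.10 with an SE of 0.10, limma adjusted p = 1.17e-07). PFKFB2 shares 3.09% of its exon bases with YOD1 on the opposite strand, which went from 9.28 to 25.5 FPKM. Whether the authors' FPKM used strand is not stated in the sources used here. PFKFB4 (ENSG00000114268, chr3:48517684-48562015, - strand), the testis-type isoenzyme and a known hypoxia-induced gene, was at 4.94, 4.0, 5.73 and 5.94 FPKM with vehicle and 5.89, 5.2, 6.94 and 7.09 FPKM with JIB-04. The groups overlapped and it did not pass the test (log2 fold change 0.27 with an SE of 0.14, limma adjusted p = 0.123, unadjusted 95% interval -0.058 to 0.59), although it passed as higher in TPM (0.41).

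In lower glycolysis 5 of 7 genes rose (71.4%, against 34.2% of all genes), 1 fell (14.3%, against 38.0%) and 1 did not pass. PGK1 (ENSG00000102144, chrX:77910739-78129296, + strand), phosphoglycerate kinase, the first ATP-forming enzyme of the pathway, had 552, 612, 589 and 558 FPKM with vehicle and 1235, 1238, 1382 and 1413 FPKM with JIB-04. It was the only gene of this stretch past 2-fold, and its groups did not overlap (log2 fold change 1.19 with an SE of 0.057, limma adjusted p = 1.12e-07). GAPDH, the enzyme just before it and a common reference gene, went the other way, from 7498 ± 249 to 4933 ± 73.5 FPKM (log2 fold change -0.60 with an SE of 0.031, limma adjusted p = 1.75e-07). GAPDH was the most abundant of the 34 genes in both groups, and the fall was smaller, at -0.092 (limma adjusted p = 0.132), under quantile scaling, which sets the highest levels of all libraries equal. PGAM1, phosphoglycerate mutase, rose from 159 ± 6.70 to 198 ± 9.71 FPKM (log2 fold change 0.32 with an SE of 0.049, limma adjusted p = 0.00026). PKM, which encodes the pyruvate kinases of the last step, rose from 2608 ± 149.9 to 3340.2 ± 121 FPKM (log2 fold change 0.36 with an SE of 0.047, limma adjusted p = 8.84e-05). The table gives 1 level per gene, so the PKM1 and PKM2 splice forms are not separated.

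Of the enolases, the major ubiquitous form did not pass the test while both tissue-restricted forms rose. ENO1 (ENSG00000074800, chr1:8861000-8879250, - strand) had 4081, 4216, 4177 and 3896 FPKM with vehicle and 4283, 4385, 4123 and 4361 FPKM with JIB-04. These ranges overlapped (log2 fold change 0.068 with an SE of 0.035, limma adjusted p = 0.109, unadjusted 95% interval -0.011 to 0.15), and the gene passed as higher under 4 other scalings, at 0.095 to 0.28. ENO2, the neuronal form, rose from 160.2 ± 8.35 to 225 ± 3.04 FPKM (log2 fold change 0.49 with an SE of 0.043, limma adjusted p = 6.15e-06), and ENO3, the muscle form, from 5.18 ± 0.580 to 9.30 ± 1.67 FPKM (log2 fold change 0.78 with an SE of 0.14, limma adjusted p = 0.000642). Neither set of libraries overlapped. The 3 muscle markers examined stayed under 1 FPKM in sum, while the neuronal marker sum ran higher with JIB-04, as given above. ENO3 shares 2.59% of its exon bases with PFN1 on the opposite strand, which had 1251 FPKM with vehicle and 885 FPKM with JIB-04.

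The lactate dehydrogenase subunits moved in opposite directions, while their sum was 2447 ± 149.6 FPKM with vehicle and 2489 ± 95.7 FPKM with JIB-04. LDHA (ENSG00000134333, chr11:18394388-18408425, + strand), the subunit that favors reduction of pyruvate to lactate, had 679.6, 808, 767 and 782 FPKM with vehicle and 1350.4, 1278, 1282 and 1392 FPKM with JIB-04. It rose without overlap (log2 fold change 0.81 with an SE of 0.057, limma adjusted p = 1.28e-06). LDHB (ENSG00000111716, chr12:21635342-21757857, - strand), the heart-type subunit, had 1550.4, 1725, 1700.2 and 1776 FPKM with vehicle and 1179, 1134, 1128 and 1214 FPKM with JIB-04. It fell without overlap (log2 fold change -0.54 with an SE of 0.047, limma adjusted p = 5.73e-06), and LDHA passed from 31.0% ± 0.654 to 53.3% ± 0.195 of their sum. Pseudogene copies of LDHA (6 copies) had 35.3% of its FPKM in vehicle and 33.6% with JIB-04, and those of LDHB (3 copies) 11.4% and 11.2%, so the copies moved with their parents.

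Both lactate exporters rose. SLC16A1 (MCT1), the transporter that carried nearly all of the pair's FPKM, rose from 135 ± 7.62 to 262 ± 4.96 FPKM (log2 fold change 0.96 with an SE of 0.046, limma adjusted p = 1.2e-07). SLC16A3 (ENSG00000141526, chr17:82228397-82261129, + strand), which encodes MCT4, the low-affinity exporter typical of strongly glycolytic cells, had 0.884, 0.819, 0.728 and 0.683 FPKM with vehicle and 9.66, 9.30, 7.80 and 6.95 FPKM with JIB-04. It went from under 1 FPKM in every vehicle library to over 6 FPKM in every JIB-04 library, 10.8-fold in the ratio of means (log2 fold change 2.80 with an SE of 0.13, limma adjusted p = 9.61e-08). With a vehicle mean under 1 FPKM, SLC16A3 reached the level for testing only through the JIB-04 libraries. Its entry therefore favored a rise. Even with this rise SLC16A3 reached only 3.11% ± 0.403 of the pair. SLC16A3 shares 5.36% of its exon bases with CSNK1D on the opposite strand, which itself had 139 FPKM with vehicle and 279 FPKM with JIB-04, and the libraries were directional but whether the authors' FPKM used strand is not stated in the sources used here.

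At the pyruvate gate, 1 of 3 kinases rose, while PDHA1, PDHB and DLAT, the 3 genes of the enzyme complex in the group, fell. PDHX, a gene of the complex outside the group, rose (log2 fold change 0.55), as given below. PDK1 (ENSG00000152256, chr2:172555373-172608669, + strand), the hypoxia-induced kinase, had 2.29, 2.70, 2.14 and 3.42 FPKM with vehicle and 27.4, 27.9, 22.3 and 22.9 FPKM with JIB-04. Its lowest JIB-04 library stood far above its highest vehicle library (log2 fold change 3.04 with an SE of 0.14, limma adjusted p = 8.37e-08). PDK2 (ENSG00000005882, chr17:50094737-50112152, + strand), the broadly expressed kinase, had 17.9, 14.5, 15.5 and 12.3 FPKM with vehicle and 11.5, 14, 10.4 and 12.6 FPKM with JIB-04. Its groups overlapped and it did not pass the test (log2 fold change -0.30 with an SE of 0.13, limma adjusted p = 0.0603, unadjusted 95% interval -0.58 to -0.0097), but leaving out vehicle replicate 4 or JIB-04 replicate 2 let it pass as lower, at -0.39 (limma adjusted p = 0.0168) and -0.37 (limma adjusted p = 0.0328). PDK2 also shares 38.6% of its exon bases with SAMD14 on the opposite strand, which went from 36.9 to 10.7 FPKM. Whether the authors' FPKM used strand is not stated in the sources used here, so the PDK2 level is uncertain. PDK3 (ENSG00000067992, chrX:24465221-24541862, + strand) had 7.58, 8.35, 8.34 and 7.36 FPKM with vehicle and 8.17, 7.86, 8.28 and 9.79 FPKM with JIB-04, which overlapped (log2 fold change 0.10 with an SE of 0.089, limma adjusted p = 0.339, unadjusted 95% interval -0.10 to 0.30), and passed as higher in TPM (0.25).

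The 3 genes of the pyruvate dehydrogenase complex in the group all fell, and their sum went from 936 ± 39.4 to 511 ± 4.71 FPKM. PDHB (ENSG00000168291, chr3:58427630-58433857, - strand), the beta subunit of its first enzyme, had 75.7, 82.1, 78.3 and 77.8 FPKM with vehicle and 32.7, 29.2, 34.3 and 31.5 FPKM with JIB-04. It was the only gene of the 34 to fall at least 2-fold, and its groups did not overlap (log2 fold change -1.29 with an SE of 0.058, limma adjusted p = 7.61e-08). PDHA1, the alpha subunit that the PDKs phosphorylate, fell from 792 ± 34.3 to 442 ± 4.69 FPKM (log2 fold change -0.84 with an SE of 0.037, limma adjusted p = 7.17e-08), and DLAT, the acetyltransferase core, from 65.2 ± 4.36 to 36.6 ± 2.58 FPKM (log2 fold change -0.82 with an SE of 0.068, limma adjusted p = 3.7e-06). In none of these 3 genes did the libraries of the groups overlap. Per length of transcript, PDHA1 was the most abundant of the 3 in every library.

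The 3 genes of the glycogen branch moved in 3 ways. GBE1 (ENSG00000114480, chr3:81489699-81762161, - strand), the glycogen branching enzyme, had 3.94, 4.15, 3.75 and 4.52 FPKM with vehicle and 10.7, 11.8, 12.3 and 12.5 FPKM with JIB-04. It rose without overlap (log2 fold change 1.43 with an SE of 0.086, limma adjusted p = 4.7e-07). GYS1, the glycogen synthase of most tissues, fell from 84.9 ± 3.88 to 52.7 ± 1.93 FPKM (log2 fold change -0.68 with an SE of 0.049, limma adjusted p = 1.56e-06). PGM1 (ENSG00000079739, chr1:63593276-63660245, + strand), the phosphoglucomutase that links glycogen to glycolysis, had 9.61, 10.9, 11.5 and 11.1 FPKM with vehicle and 11.3, 10.7, 9.48 and 10.4 FPKM with JIB-04. Its groups overlapped, it did not pass the test (log2 fold change -0.037 with an SE of 0.083, limma adjusted p = 0.705, unadjusted 95% interval -0.22 to 0.15), and the sign of this small difference changed under TPM, with nuclear genes only and without JIB-04 replicate 3.

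Read within sets of isoenzymes, the mixture of transcripts changed in nearly every set. A share of the summed FPKM of a set is taken within a library and so does not change when all levels of the library are multiplied by 1 factor, as in TPM. In 9 sets with 22 shares, 20 shares did not overlap between the groups. As levels, 67.3% of all genes tested did not overlap either, and shares of sets of other genes were not computed for comparison. The 2 shares of a set of 2 genes mirror each other, so the 22 shares are not separate observations. For these an exact two-sided permutation test gave p = 0.0286, the smallest that 70 splits of 4 against 4 libraries allow, not adjusted over the 22 shares, and in a set of 2 genes both shares give the same test. The largest move was among the PDKs, where PDK1 went from 8.23%, 10.6%, 8.23% and 14.9% of the FPKM in the vehicle libraries to 58.3%, 56.0%, 54.4% and 50.6% in the JIB-04 libraries. PDK1 was the least abundant of the 3 kinases in every vehicle library and the most abundant in every JIB-04 library. PDK2 went from 58.5% ± 4.76 to 26.4% ± 1.84 and PDK3 from 31.0% ± 2.48 to 18.7% ± 2.64, while neither passed the test as a level. As given above, PDK2 shares 38.6% of its exon bases with SAMD14 on the opposite strand. The PDK shares and the summed PDK level therefore depend on whether SAMD14 reads were counted for PDK2. The summed PDK level was 25.6 ± 1.95 FPKM with vehicle and 45.8 ± 3.66 FPKM with JIB-04.

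The leading gene of the set also changed among the glucose transporters, where SLC2A3 went from 27.7% ± 2.32 to 56.1% ± 1.64, and among the lactate dehydrogenases. PFKP led the phosphofructokinases in both groups, at 48.2% ± 2.47 and 59.5% ± 0.891, while PFKL went from 22.2% ± 1.69 to 11.2% ± 0.956. PFKM kept 29.6% ± 0.819 and 29.3% ± 0.939 (exact permutation p = 0.60), with libraries that overlapped. The major forms of the enolases, aldolases, exporters and PFKFB enzymes had means above 90% in both groups. ENO1 went from 96.1% ± 0.122 to 94.8% ± 0.125 of the enolases, ALDOA from 99.8% ± 0.0172 to 98.2% ± 0.113 of the aldolases, and SLC16A1 from 99.4% ± 0.0991 to 96.9% ± 0.403 of the exporters. PFKFB3 went from 90.6% ± 1.82 to 93.6% ± 0.505 and PFKFB4 from 6.36% ± 1.25 to 2.19% ± 0.380, while PFKFB2, at 3.04% ± 0.704 and 4.18% ± 0.148, overlapped (exact permutation p = 0.0571). ENO2 rose from 3.76% ± 0.118 to 4.98% ± 0.147 and ENO3 from 0.122% ± 0.0173 to 0.205% ± 0.0343 of the enolases. Adding the FPKM of the annotated pseudogene copies to their parents left every share on the same side of the test.

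**Figure D3:**
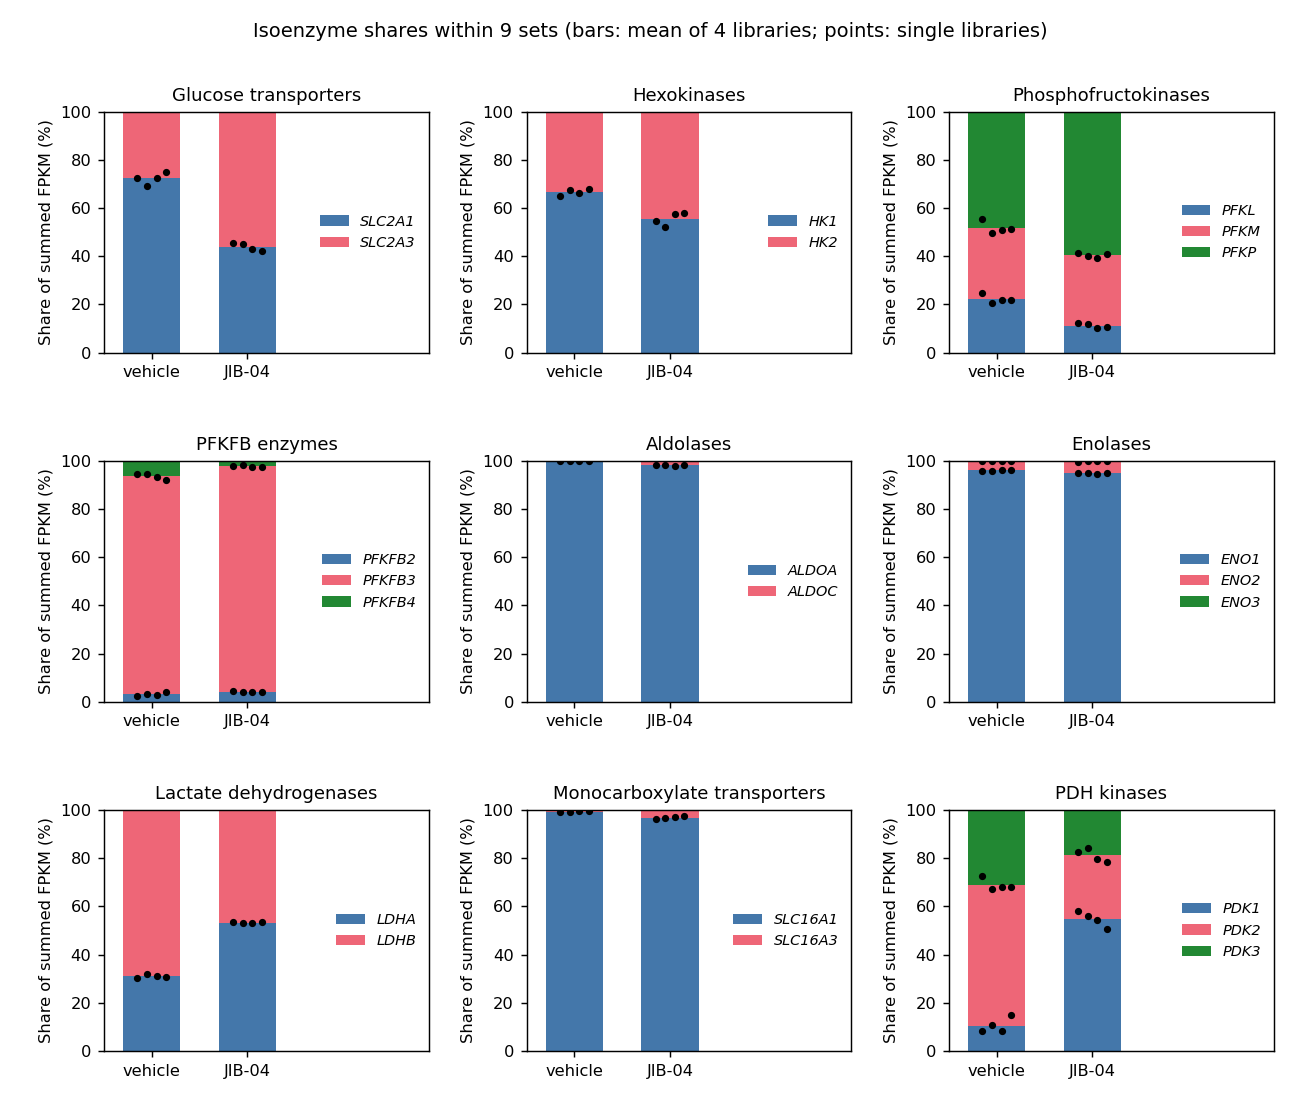
Share of each gene in the summed FPKM of its isoenzyme set (percent, stacked bars, mean of 4 libraries) with vehicle and JIB-04 side by side, and black points for the cumulative share in single libraries. PDK1 went from 10.5% to 54.8%, SLC2A3 from 27.7% to 56.1% and LDHA from 31.0% to 53.3%, while ENO1, ALDOA and SLC16A1 kept over 90%.

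Of 75 other genes of glucose metabolism, listed by pathway, 52 reached the level for testing, of which 20 rose (38.5%, against 34.2% of all genes), 23 fell (44.2%, against 38.0%) and 9 did not pass, and their median log2 fold change was -0.0051. These shares were near those of all genes. Among other glycolytic isoenzymes and transporters 8 of 11 tested rose (72.7%) and 2 fell (18.2%), while 17 of the 28 listed were not tested. Of the risers, SLC2A14, HKDC1 and PGK2 had vehicle means of 0.571, 0.240 and 0.651 FPKM. They reached the level for testing only through the JIB-04 libraries, so their entry favored a rise. The same held for PYGM, GPD1 and ARRDC4 in the lists that follow, which also rose. HKDC1, a hexokinase of restricted expression, went from 0.240 ± 0.12 to 6.09 ± 1.03 FPKM (log2 fold change 3.16 with an SE of 0.17, limma adjusted p = 2.14e-07). BSG, the partner protein that brings lactate exporters to the membrane, fell from 1233 ± 51.5 to 993 ± 47.9 FPKM (log2 fold change -0.31 with an SE of 0.046, limma adjusted p = 0.000193). Among genes of pyruvate entry and the rest of the pyruvate dehydrogenase complex 3 of 8 rose and 4 fell. MPC1, a subunit of the mitochondrial pyruvate carrier, fell from 71.1 ± 4.48 to 35.4 ± 2.99 FPKM (log2 fold change -1.0 with an SE of 0.073, limma adjusted p = 1.66e-06), whereas MPC2, its partner, had 141 ± 8.0 and 157 ± 4.28 FPKM (log2 fold change 0.16 with an SE of 0.048, limma adjusted p = 0.0157). PDHX, the binding protein of the complex, rose from 71.9 ± 9.02 to 105 ± 7.98 FPKM (log2 fold change 0.55 with an SE of 0.092, limma adjusted p = 0.000435), unlike PDHA1, PDHB and DLAT. DLD, the subunit shared with other dehydrogenases, fell but with libraries that overlapped (log2 fold change -0.28 with an SE of 0.088, limma adjusted p = 0.0165). BSG, MPC1, MPC2, PDHX and DLD were chosen after their values were seen.

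Of the branches that leave glycolysis, the lists are short. Their counts are to be set beside the 34.2% of all genes that rose and the 38.0% that fell. In the pentose phosphate pathway 5 of 7 genes fell and 2 rose, with a median log2 fold change of -0.67, and in gluconeogenesis and the glycerol phosphate branch 4 of 6 fell and 1 rose, with a median of -0.83. TALDO1 and TKT, the transaldolase and transketolase of the nonoxidative pentose branch, fell to 65.2 ± 2.69 and 165 ± 9.40 FPKM from 149.7 ± 6.65 and 364 ± 9.46 FPKM (log2 fold changes -1.19 and -1.14, limma adjusted p = 4.4e-08 and 4.59e-08), and were chosen after their values were seen. Glycogen metabolism was mixed, with 4 of 15 genes higher and 7 lower (46.7%). GYG2, a glycogenin that primes glycogen, went from 44.9 ± 0.770 to 3.01 ± 0.307 FPKM, the largest fall of these genes (log2 fold change -3.70 with an SE of 0.077, limma adjusted p = 1.4e-09). PHKA2, the liver-type regulatory subunit of phosphorylase kinase, fell from 58.4 ± 3.85 to 13.6 ± 3.41 FPKM (log2 fold change -2.09 with an SE of 0.14, limma adjusted p = 1.15e-06). PGM2L1 and PGM2, relatives of PGM1 that act on other sugar phosphates, rose from 4.53 ± 0.492 to 32.5 ± 4.53 and from 14 ± 2.53 to 52.1 ± 1.72 FPKM (log2 fold changes 2.71 and 1.88, limma adjusted p = 5.07e-08 and 4.95e-07). Of 5 genes of glucose sensing 2 rose, 1 fell and 2 did not pass. The 2 that rose were TXNIP and ARRDC4, related arrestins induced by glucose that restrain its uptake. TXNIP went from 25.5 ± 0.302 to 191 ± 4.68 FPKM (log2 fold change 2.88 with an SE of 0.039, limma adjusted p = 2.12e-10) and ARRDC4 from 0.951 ± 0.0441 to 16.1 ± 1.20 FPKM (log2 fold change 3.52 with an SE of 0.089, limma adjusted p = 3.56e-09). MLX, a partner of the glucose-sensing factors, fell (log2 fold change -0.70 with an SE of 0.068, limma adjusted p = 1.21e-05), and was chosen after its values were seen.

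**Figure D4:**
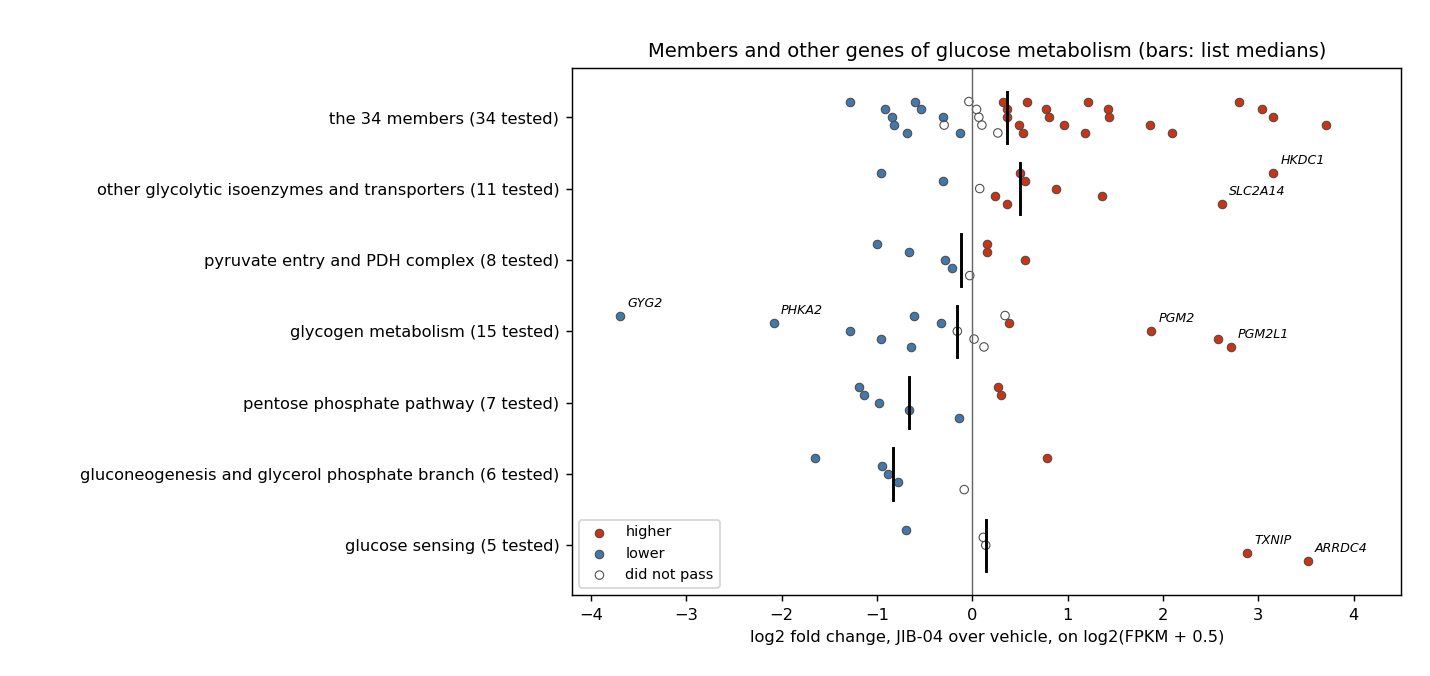
Log2 fold change of JIB-04 over vehicle on the log2(FPKM + 0.5) scale for the 34 genes and for the tested genes of 6 other lists of glucose metabolism, with filled points for genes that passed the test and vertical bars for list medians. The median was 0.36 for the 34 genes, 0.50 for other glycolytic isoenzymes and transporters, -0.67 for the pentose phosphate pathway and -0.83 for gluconeogenesis and the glycerol phosphate branch. Of the other isoenzymes and transporters, 17 of 28 listed were not tested, and SLC2A14, HKDC1 and PGK2 reached testing only through their JIB-04 levels.

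Reads of near-identical gene copies bear on the levels of the most abundant enzymes. Of the 34 genes, 13 had annotated pseudogene copies in the table, 106 copies in all, and 11 had copies with over 1% of the FPKM of the parent. Copies were counted by name (the parent symbol, P and a number), so related genes with other names were left out. PGAM4, at 29.5 FPKM with vehicle and 34.9 FPKM with JIB-04, was thus not counted for PGAM1. GAPDH had 62 copies with 26.6% of its FPKM in vehicle and 25.9% with JIB-04. The copies of HK2 had 18.1% and 16.3%, of PKM 14.9% and 15.3%, of ENO1 9.92% and 10.2%, of PGK1 8.6% and 8.15%, of PGAM1 8.17% and 11%, and of ALDOA 3.42% and 3.22%. Of these 11 genes, the part held by copies moved most in SLC2A3. In GENCODE release 29, ALDOA and LDHB also shared 42.3% and 33.4% of their exon bases with a same-strand gene that has no entry in the table.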

How the data were processed

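RNA-seq libraries of A673 cells (4 vehicle, 4 JIB-04) were grouped by the treatment given in the sample labels. Per the labels and methods, the authors made directional mRNA libraries, aligned single-end reads to GRCh38 with GSNAP, handled the alignments with SAMtools and computed FPKM with Cufflinks. The deposited FPKM were used as given, with no further normalization. Of 66095 entries for 65975 Ensembl identifiers, the values of 117 identifiers with more than 1 entry were summed, and 13 genes with a placeholder value were left out, none of them among the 34. Counts of mapped reads are not stated in the sources used here, so depth is unknown and the replicate spread alone gives the precision.

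All genes whose mean over the 8 libraries reached 1 FPKM entered a comparison on log2(FPKM + 0.5) with limma 3.58.1 in R 4.3.3 (lmFit, eBayes with trend), with Benjamini-Hochberg adjustment over all 17460 genes and a threshold of 0.05. The procedure was also run on simulated data with 200 changed genes. In the real data 12604 genes were called, so the simulation does not measure how the procedure performs at that extent of change. Shares of isoenzyme sets were compared by an exact two-sided permutation test. Genes and gene lists were chosen with earlier results of these data known. Values in each library are given for genes at least 2-fold apart, for genes of the phosphofructokinase and lactate dehydrogenase sets and for genes that did not pass, and of the 75 other genes those with the 8 largest changes and at least 5 FPKM in the higher group are named, besides those said to be chosen after their values were seen. Gene coordinates are from GENCODE release 29 (GRCh38), promoters from RefSeq. Alternatives were other pseudocounts (0.1 and 1), no filter or a filter of 5 FPKM, TPM, nuclear genes only, quantile and median-ratio scaling, the analysis of variance per gene that the study used, a replicate block, leaving out each library, and summing the identifiers of a symbol. Same-numbered replicates did not deviate together (correlations of -0.058 to 0.082 between same-numbered libraries), so the numbers were not taken as pairs. Python 3.11.15 with pandas 2.3.3, numpy 2.4.6 and matplotlib 3.10.9 was used for tables and plots.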

Additional observations from a re-analysis of the deposited data

Results flagged for a closer look

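In 68 groups of 4 libraries (34 genes in each treatment), 2 held a library far from the others by Dixon's test, where chance gives about 1 in 20 groups, or 3.4. PFKL stood at 85.6 FPKM in vehicle replicate 1 against 74.5 to 75.9 FPKM in the other vehicle libraries. DLAT stood at 40.4 FPKM in JIB-04 replicate 3 against 35.0 to 35.9 FPKM in the other JIB-04 libraries. Both genes kept their direction and passed the test without these libraries.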

How the results depend on the processing

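Over the 19 alternatives, 26 of the 34 genes kept their direction and their side of the threshold, and 8 did not in at least 1 (PFKM, PFKFB4, TPI1, GAPDH, ENO1, PDK2, PDK3 and PGM1). The number of genes that rose ran from 18 (filter of 5 FPKM, which leaves SLC16A3 out) to 23 (TPM), and of those that fell from 7 (quantile scaling) to 10 (without vehicle replicate 4 or JIB-04 replicate 2). At least 2-fold, 9 to 11 rose and 1 fell. Of the other pathway genes 15 to 26 rose and 20 to 25 fell. The median log2 fold change of the 34 genes was 0.53 in TPM, 0.44 with nuclear genes only and 0.45 under quantile scaling, and over all genes TPM gave 7061 higher and 5424 lower against 5964 and 6640. TPI1 turned to 0.035 in TPM and to 0.087 under quantile scaling, where it passed as higher (limma adjusted p = 0.0164). PGM1 turned to 0.12 in TPM, 0.042 with nuclear genes only and 0.0080 without JIB-04 replicate 3, with a range of -0.088 to 0.0080 over the omissions of single libraries. The fall of GAPDH was -0.092 under quantile scaling. The cause of these changes was not tested, beyond the shift that a scaling sets by construction.

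The replicate numbers were entered as a block in 1 alternative, where 20 genes of the group rose and 9 fell. Of all 17460 genes tested with this block, 5900 rose and 6618 fell. PFKFB4 passed as higher with the block (log2 fold change 0.27, limma adjusted p = 0.0312). Deviations of same-numbered libraries gave no pairing, and 1 of 8 libraries correlated best with its own number. For the isoenzyme shares, leaving out a library makes the smallest exact permutation p 0.0286, and 0.0571 is the next step. The difference in the PFKM share turned to 0.087 percentage points without vehicle replicate 1 and 0.044 without JIB-04 replicate 2, with a range of -0.72 to 0.087 over omissions. Over omissions the ENO3 share differed by 0.0703 to 0.096 points and the PFKFB3 share by 2.19 to 3.56 points, and the exact permutation p was 0.0571 for ENO3 whichever vehicle library was left out and for PFKFB3 whichever JIB-04 library was left out. The PFKFB2 share differed by 0.919 to 1.45 points and passed without vehicle replicate 4, at 1.45 points. FPKM hold no read counts, so the precision of genes at a few FPKM, such as PFKFB2, SLC16A3, PDK1 and GBE1, could be judged only from the spread between libraries.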
